A study of Homo sapiens with 12 samples.

Results

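The peaks described here lie wholly in the 3′ untranslated region (3′ UTR) of mRNAs whose longest annotated transcript is at least 4000 nt. They come from an m1A immunoprecipitation study of SNU-668, a human gastric cancer cell line, in a form resistant to erastin, a compound that blocks cystine import and kills cells by ferroptosis. In each peak list, distinct peaks were taken by position, the transcript regions of all their entries were pooled, and a peak was kept when those regions named the 3′ UTR alone and the longest transcript reached 4000 nt. This gave 14311 peaks of 81260 when the 6 lists are summed, at 14114 distinct positions of 79668. No further filter on low values was applied here, so all of them enter the results. The deposited lists themselves hold only peaks with p below 1e-10. Peaks of larger p are missing, and enrichment medians describe the listed peaks alone.

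The study had 12 samples. RNA of erastin-resistant SNU-668 cells carrying an shRNA against ALKBH3, labelled ALKBH3 knockdown, was compared with RNA of the same resistant cells carrying a control shRNA, labelled WT. Each group had 3 immunoprecipitated (IP) and 3 input samples, the cells having been re-plated at day 4 in DMEM with 10% serum per the labels' protocols. Resistance is thus shared by both groups, and a single cell line was used. All sample titles begin with RLS3, a term without explanation in the labels, so whether it names a further agent or a line is not known. Whether replicates were separate cultures is not stated in the labels, and the p-values then reflect the spread of these samples alone, which could be technical. One peak list per IP sample was deposited, without read counts. The depth behind each list is thus unknown, and the level of ALKBH3 mRNA could not be checked.

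N1-methyladenosine (m1A) places a methyl group and a positive charge on the base-pairing face of adenosine, and ALKBH3 is an enzyme that removes it. The 3′ UTR follows the stop codon and carries sites for microRNAs and RNA-binding proteins that set the stability, location and translation of an mRNA. Long transcripts of human cells often owe their length to a long 3′ UTR. Fragments were about 300 nt, so a peak marks a neighbourhood and not a base.

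Markers of the labelled cell type were present. Of the 6 gastric epithelial markers examined, 5 had a peak of any region in at least 1 list, with KRT8 and KRT18, keratins of simple epithelium, in 6 of 6 lists and CDH1 in none. Of 4 fibroblast markers 3 had a peak, with COL1A2 in 6 lists and DCN in none. Of 4 immune markers only CD68 had a peak, in 6 lists, and none of 3 endothelial markers had one. A missing peak does not show that an RNA was absent.

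The 6 lists differed widely in length, and the long-transcript 3′ UTR peaks differed with them. In the knockdown group there were 3390 such peaks in replicate 1, 2902 in replicate 2 and 2027 in replicate 3. In the control group there were 1140, 1381 and 3471. The control list of replicate 3 thus held the most and the other control lists the fewest, and the groups overlapped. The knockdown mean was 1.54-fold above the control mean on a log scale, a log2 difference of 0.62 (two-sided exact permutation test over lists, p = 0.4, adjusted p = 0.64 over 8 tests, smallest possible p = 0.1, n = 3 lists per group). Leaving out control replicate 1 made that difference 0.31, and leaving out control replicate 3 made it 1.11. When every list was shortened to its 4894 most enriched peaks, the length of the shortest list, it was -0.02.

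As a share of all peaks, knockdown replicate 1 stood apart. There 9.77% of 34691 peaks (Wilson 95% interval 9.46% to 10.1%) were long-transcript 3′ UTR peaks. The share was 22.2% (21.5% to 22.9%) of 13056 peaks in knockdown replicate 2 and 23.9% (23.0% to 24.8%) of 8474 peaks in knockdown replicate 3. In the control lists it was 22.7% (21.6% to 23.9%) of 5015, 28.2% (27.0% to 29.5%) of 4894 and 22.9% (22.3% to 23.6%) of 15130. These intervals cover counting error only. The means were 18.6% ± 7.73 (SD, n = 3) with knockdown and 24.6% ± 3.11 in control, a difference of -5.99 points (exact permutation test, p = 0.4, adjusted p = 0.64), which was -1.56 points without knockdown replicate 1 and -0.34 points with lists of equal length.

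Among 3′ UTR peaks alone, the share on long transcripts was 49.5% (48.3% to 50.7%), 56.7% (55.4% to 58.1%) and 54.2% (52.6% to 55.8%) in knockdown replicates 1 to 3. In control replicates 1 to 3 it was 39.5% (37.8% to 41.3%), 47.3% (45.5% to 49.2%) and 51.8% (50.6% to 52.9%). Control replicates 1 and 2 were the lowest, and control replicate 3 lay above knockdown replicate 1, so the groups overlapped. The means were 53.5% ± 3.68 and 46.2% ± 6.18, a difference of 7.26 points (exact permutation test, n = 3 per group, p = 0.2, adjusted p = 0.533). It was 3.92 points without control replicate 1, 10.03 points without control replicate 3 and 12.7 points with lists of equal length (exact permutation test, p = 0.2).

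**Figure D1:**
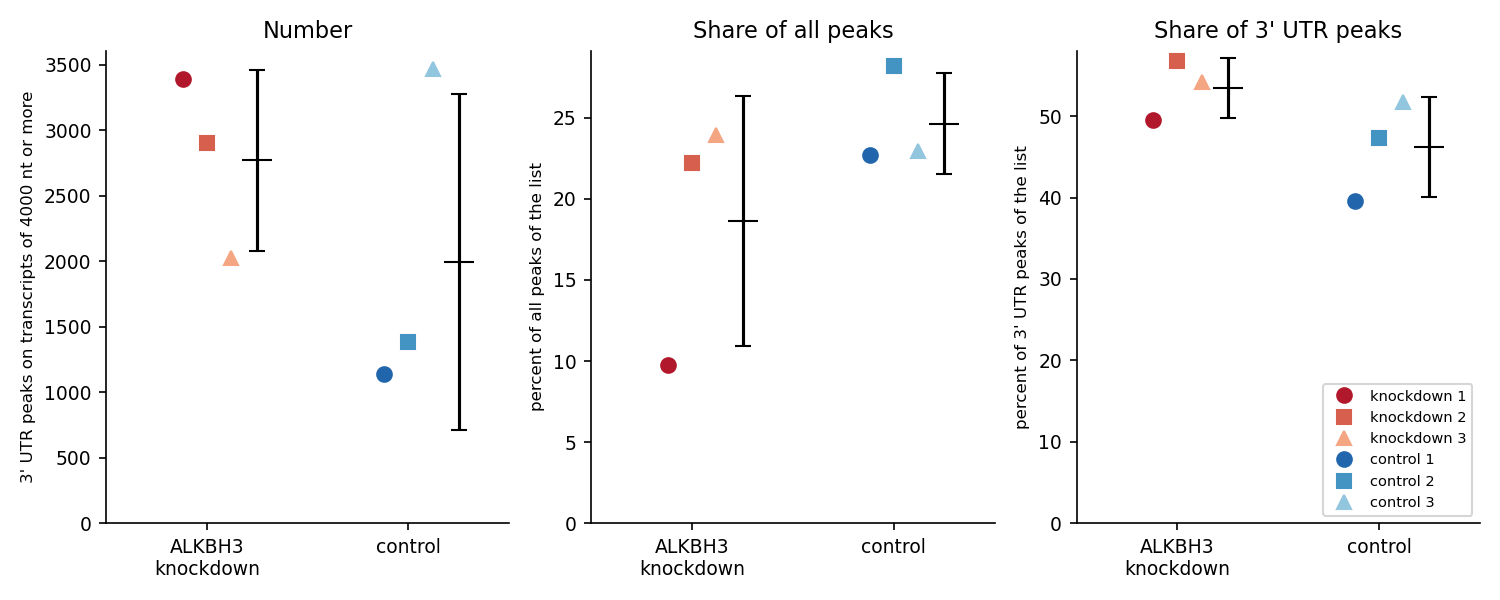
Number of 3′ UTR peaks on transcripts of 4000 nt or more in each list (left), their percent of all peaks (middle) and their percent of 3′ UTR peaks (right). Each point is 1 list, the dash and bar are the group mean and SD of 3 lists, and the groups overlap in every panel, with knockdown replicate 1 at 9.77% in the middle one.

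Length itself entered the choice of the peaks, so its values are given without a test. The median longest transcript of a peak was 5835, 6120 and 5943 nt in knockdown replicates 1 to 3 and 5461, 5526 and 5795 nt in control replicates 1 to 3, so every knockdown list lay above every control list. Among coding peaks of the same lists, the share on transcripts of 4000 nt or more was 52.3% ± 0.407 (SD, n = 3) with knockdown and 40.6% ± 3.05 in control, also without overlap. This difference of 11.6 points had the smallest p of the design and did not pass correction (exact permutation test, p = 0.1, adjusted p = 0.4 over 4 measures compared after their values had been seen). No difference could have passed with this number of lists, so the correction cannot decide.

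Within every list, long-transcript 3′ UTR peaks were more strongly enriched than 3′ UTR peaks of shorter transcripts. Enrichment is the log2 fold change that the authors give each peak. It was tested here through differences or ranks within a list, apart from 1 comparison of the share of peaks above a fixed value. Values of single genes are set side by side across lists as deposited. They were not scaled to each other, and the list medians differed. Its median over long-transcript 3′ UTR peaks was 2.34, 2.87 and 2.67 in knockdown replicates 1 to 3 and 1.81, 2.80 and 2.62 in control replicates 1 to 3. Over 3′ UTR peaks on transcripts under 4000 nt it was 2.06, 2.40 and 2.10 with knockdown and 1.53, 2.26 and 2.14 in control. The long-transcript median was higher in 6 of 6 lists, by 0.28 to 0.57, with a mean of 0.43 ± 0.13 on the log2 scale (SD, n = 6). An exact permutation test by sign changes gave p = 0.03125, the smallest that 6 lists allow. The adjusted p was 0.25, so the result did not pass correction over the 8 tests. The smallest p-values these tests allow are too large for any of the 8 to pass at a conventional level, so the correction cannot decide. With any 1 list left out the mean was 0.41 to 0.47 and p was 0.0625, the smallest exact value for the lists left. Coding peaks on transcripts of 4000 nt or more also exceeded coding peaks on shorter ones in every list, by 0.15 to 0.45. That coding gap was not tested. In control replicate 1 it was 0.43, larger than the 3′ UTR gap of 0.28, and in the other lists it was the smaller of the 2.

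The gap between long-transcript and short-transcript 3′ UTR peaks was nearly the same in both groups. It was 0.44 ± 0.15 with knockdown and 0.43 ± 0.14 in control, a difference of 0.0033 (exact permutation test, n = 3 per group, p = 1, adjusted p = 1). With each list shortened to its 4894 strongest peaks the difference was -0.18. The deposited p-values did not part the 2 kinds of 3′ UTR peak in the same way: the median of -log10 p was 11.1 to 11.7 over long-transcript and 11.2 to 11.6 over short-transcript 3′ UTR peaks.

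Coding peaks of long transcripts were also less enriched than the 3′ UTR peaks, with 1 exception. Their median log2 enrichment was 2.03, 2.25 and 2.07 with knockdown and 1.83, 2.22 and 2.02 in control. The 3′ UTR median was higher by 0.31 to 0.62 in 5 lists, and in control replicate 1 it was lower, by a log2 difference of -0.03. Over the 6 lists the mean difference was 0.44 ± 0.26 (exact sign-change permutation test, n = 6, p = 0.0625, adjusted p = 0.25). Without control replicate 1 it was 0.54.

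A gene can be held fixed by taking only genes with both kinds of peak in a list, a comparison chosen after seeing the data. There were 1171, 626 and 356 such genes in knockdown replicates 1 to 3 and 103, 101 and 556 in control replicates 1 to 3. The 3′ UTR peaks of a gene were the more enriched in 62.1% of these genes in control replicate 1 and in 71.8% to 79.2% in the other lists. The median difference within a gene was 0.30, 0.48 and 0.48 with knockdown and 0.16, 0.53 and 0.40 in control. Its mean of 0.39 was above 0 in 6 of 6 lists (exact sign-change permutation test, unadjusted p = 0.03125).

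**Figure D2:**
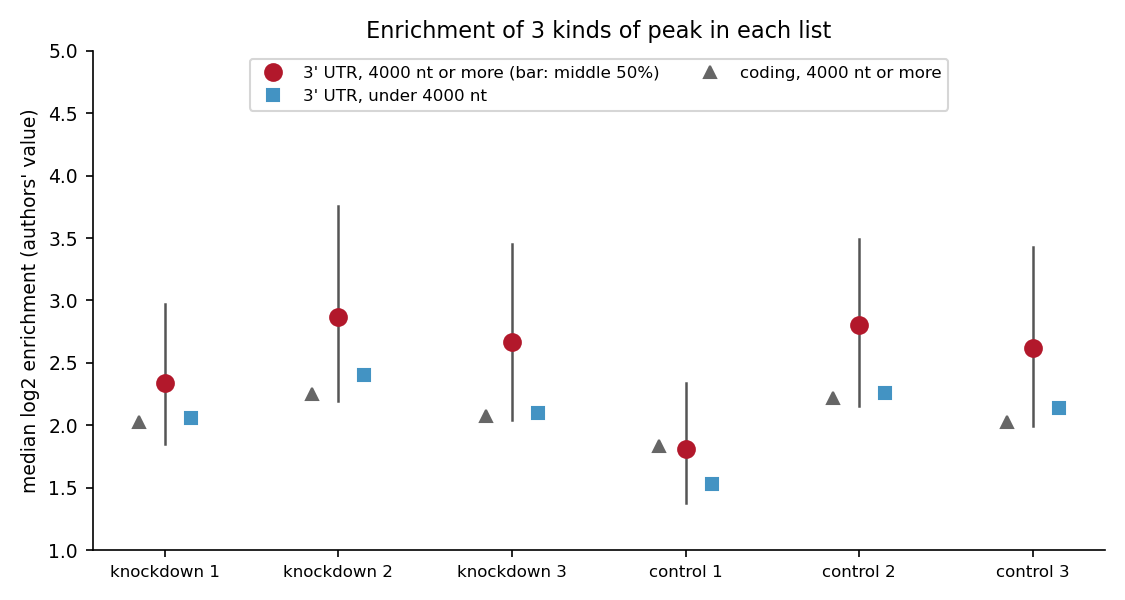
Median log2 enrichment, the authors' value, of 3′ UTR peaks on transcripts of 4000 nt or more (circles, with a bar over the middle 50% of peaks), 3′ UTR peaks on shorter transcripts (squares) and coding peaks on transcripts of 4000 nt or more (triangles). The circle is above the square in 6 lists and above the triangle in all but control replicate 1, where the medians are 1.81 and 1.83.

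Enrichment was higher on longer transcripts, without a step at 4000 nt, a description that was not tested. From transcripts under 2000 nt to those of 8000 nt or more the median of 3′ UTR peaks went from 1.97 to 2.56, 2.18 to 3.16 and 1.74 to 2.92 in knockdown replicates 1 to 3. In control replicates 1 to 3 it went from 1.46 to 2.06, 1.97 to 3.10 and 1.85 to 2.96. It was higher in all 6 lists, by a mean of 0.93 ± 0.27 (SD, n = 6). Among long-transcript peaks alone, those on transcripts of 8000 nt or more exceeded those on 4000 to 6000 nt by 0.30 to 0.49 in 6 of 6 lists.

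At the boundary itself the medians had no common direction. Peaks on transcripts of 4000 to 4200 nt, just inside the rule, had medians of 2.28, 2.68 and 2.58 with knockdown and 1.67, 2.54 and 2.41 in control. Those on 3800 to 4000 nt, just outside, had 2.17, 2.81 and 2.27, and 1.64, 2.61 and 2.46. The inner window was the higher in 3 of 6 lists, with differences from -0.12 to 0.31.

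The medians of coding peaks spread less at the long end. Those on transcripts of 8000 nt or more exceeded those under 2000 nt by 0.26 to 0.77 in 6 lists, but between 4000 to 6000 nt and 8000 nt or more the difference was -0.06 to 0.21. Whether transcript abundance moves with length in these cells was not analysed here.

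**Figure D3:**
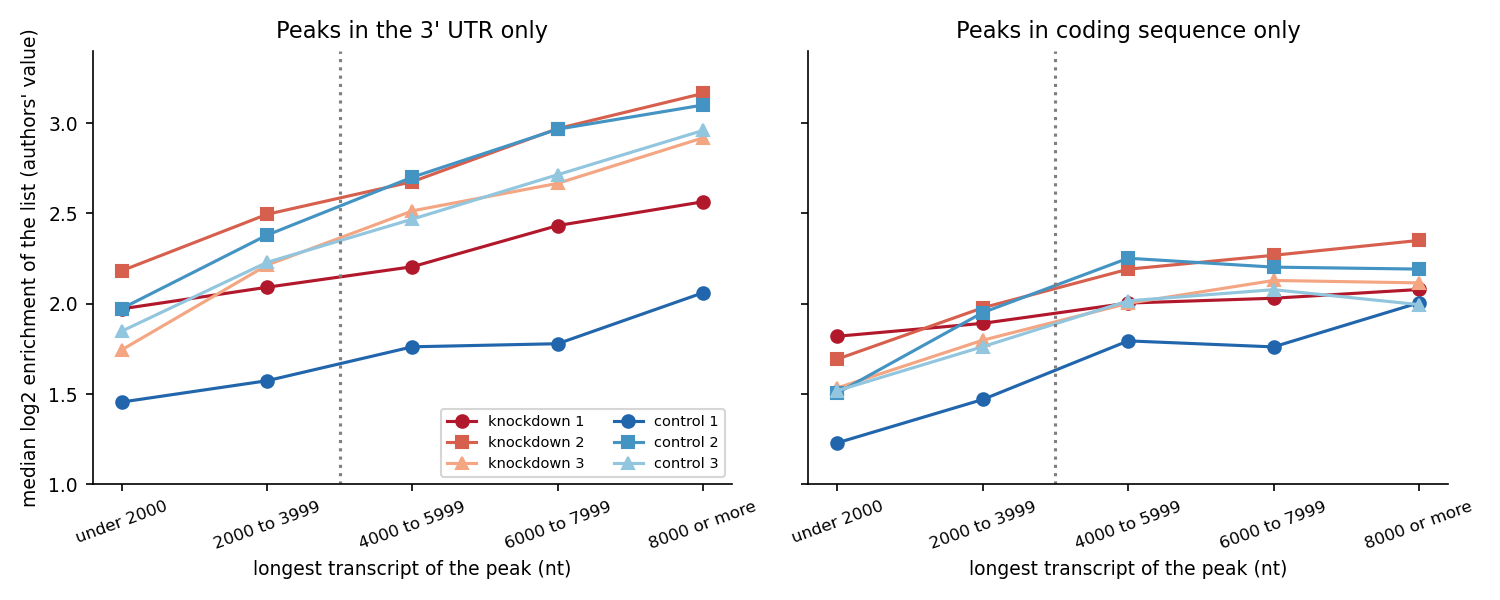
Median log2 enrichment, the authors' value, by the longest transcript of the peak (nt), for 3′ UTR peaks (left) and coding peaks (right). Each line is 1 list, the dotted line marks 4000 nt, and the 3′ UTR medians climb in all 6 lists, by 0.59 to 1.17 from the shortest to the longest class.

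In every list, peaks of this kind were among the strongest more often than short-transcript 3′ UTR peaks. Long-transcript 3′ UTR peaks ranked in the top 10% of their list's enrichment in 23.7%, 22.4% and 21.0% of cases in knockdown replicates 1 to 3 and in 16.1%, 16.9% and 22.2% in control replicates 1 to 3. Short-transcript 3′ UTR peaks did so in 8.38% to 15.3% of cases and long-transcript coding peaks in 4.66% to 14.3%. For long-transcript 3′ UTR peaks the group difference of 3.96 points was within the spread (exact permutation test, n = 3 per group, p = 0.2, adjusted p = 0.4). A log2 enrichment of 4 or more was listed for 240, 565 and 259 long-transcript 3′ UTR peaks with knockdown and for 14, 187 and 453 in control. These were 7.08%, 19.5% and 12.8% of such peaks with knockdown and 1.23%, 13.5% and 13.1% in control. Control replicate 1 was the lowest. The group difference in this share was 3.84 points, between lists that were not scaled to each other (exact permutation test, n = 3 per group, p = 0.7, adjusted p = 0.7). For short-transcript 3′ UTR peaks the share was smaller in every list, at 0.631% to 10.7%.

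Position along the 3′ UTR could be read for some peaks. Where a single-block peak of any list spanned the stop codon of the same transcript, the distance of a 3′ UTR peak from it was measured in genomic bases. This placed 261 to 787 peaks per list, 17.9% to 23.7% of the long-transcript 3′ UTR peaks. Their median distance was 1275, 1300 and 1025 bases with knockdown and 1088, 1175 and 1313 in control, and 36.6% to 44.9% of them lay 1500 bases or more beyond the stop codon peak. The placed peaks had lower values, and their median log2 enrichment was 1.56 to 2.41, below that of all long-transcript 3′ UTR peaks in each list.

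Enrichment was higher at larger distances in 5 of 6 lists, again a description. From under 500 to 3000 or more bases the median went from 1.94 to 2.08, 2.13 to 2.72 and 2.01 to 2.53 in knockdown replicates 1 to 3. In control replicates 2 and 3 it went from 2.22 to 2.67 and 2.04 to 2.65. Control replicate 1 differed, at 1.47 near the stop codon and 1.41 beyond 3000 bases, where it had 35 peaks. The mean difference was 0.37 ± 0.27 (SD, n = 6 lists). Transcript length was not held fixed across the distance classes, so distance and length cannot be told apart here.

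**Figure D4:**
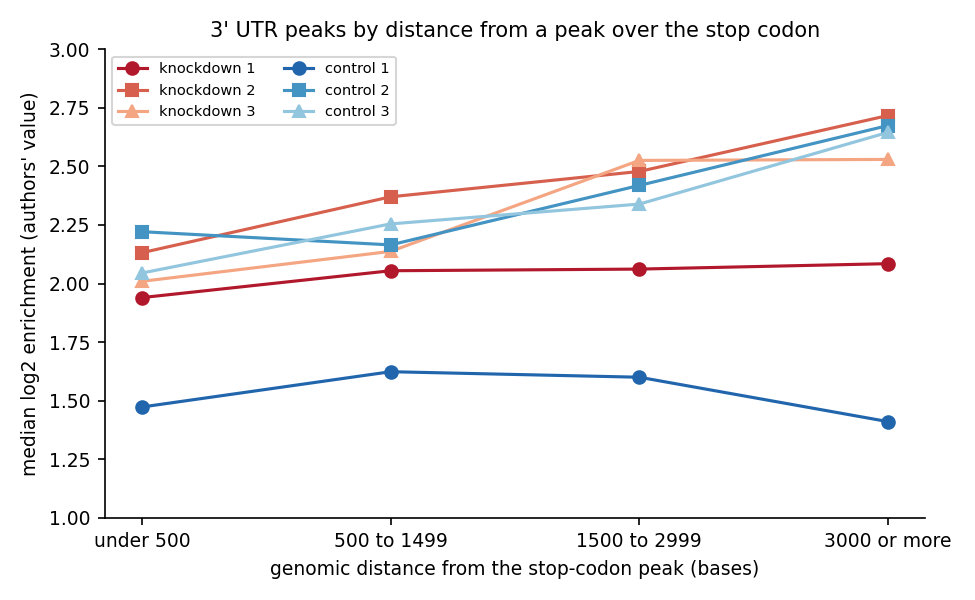
Median log2 enrichment, the authors' value, of long-transcript 3′ UTR peaks by genomic distance in bases from a peak over the stop codon of the same transcript. Each line is 1 list, and the last class lies above the first in 5 lists, by up to 0.60, and below it in control replicate 1.

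Peaks were narrow and often came in groups. The median span was 75, 100 and 75 nt with knockdown and 50, 75 and 75 nt in control, and 23.4% to 35.7% of peaks were 25 nt wide, the width of a single step of the calling. Against short-transcript 3′ UTR peaks the median was wider in 2 of 6 lists and equal in the others (mean difference 8.33 nt, exact sign-change permutation test, n = 6, p = 0.5, adjusted p = 0.667). In each list 35.7% to 50.3% of these peaks had another of the kind within 300 bases on the same strand, about the length of 1 fragment. Unlike coding peaks of long transcripts, of which 22.2% to 38.7% crossed a splice junction, 0.324% or fewer of these peaks had more than 1 exon block.

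In knockdown replicates 1 to 3, 1581, 1669 and 1273 genes carried such a peak, and in control replicates 1 to 3 the numbers were 672, 892 and 1692. Peaks per gene were 2.14, 1.74 and 1.59 with knockdown and 1.70, 1.55 and 2.05 in control, a difference of 0.06 (exact permutation test, n = 3 per group, p = 0.7, adjusted p = 0.8). It ranged from -0.10 without knockdown replicate 1 to 0.20 without control replicate 3. With lists of equal length it was -0.18, at the smallest p the design allows (exact permutation test, unadjusted p = 0.1). From 48.7% to 66.4% of genes had a single peak of the kind. The 5 genes with the largest mean share of these peaks were IGFBP5, PTP4A1, TTYH3, NFIX and SLC38A2.

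IGFBP5, a secreted binder of insulin-like growth factors, had 7, 6 and 5 peaks with knockdown and 10, 3 and 3 in control. Its best log2 enrichments were low, at 2.26, 1.33 and 2.02 with knockdown and 1.91, 1.12 and 1.46 in control. In 3 lists, knockdown replicate 2 and control replicates 2 and 3, its best peak stood below the 10th percentile of the peaks of this kind. PTP4A1, a protein tyrosine phosphatase, paired 1, 7 and 4 peaks with knockdown and 4, 6 and 9 in control with higher best values, 2.47, 3.56 and 3.48 against 2.52, 3.49 and 3.50. SLC38A2, an amino acid transporter, had 2, 8 and 3 peaks with knockdown and 4, 2 and 9 in control.

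Recurrence across lists was moderate for genes and low for positions. Of the 3139 genes with a long-transcript 3′ UTR peak in any list, 979 had one in 1 list, 828 in 2, 597 in 3, 422 in 4, 213 in 5 and 100 in all 6. Peaks overlapping by 1 base or more on a strand were joined across lists into 11387 positions, of which 9633 (84.6%) were in 1 list and 13 in all 6. In 2 or more lists lay 15.4% of these positions and 22.0% of the 9856 joined positions of short-transcript 3′ UTR peaks, a difference that was not tested. A gene could therefore recur through different places in its 3′ UTR. Of the 100 genes in all lists, 13 had a joined position in all of them. Leaving out control replicate 1 or control replicate 2 raised the number of positions found in all lists to 25 or 24.

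The overlap of 2 lists did not follow the groups, though it also depends on list length, which differed widely. The Jaccard index of genes, the shared genes over those in either list, was 0.301 to 0.351 within the knockdown group, 0.232 to 0.275 within the control group and 0.225 to 0.390 between them. For joined positions it was 0.048 to 0.055, 0.035 to 0.064 and 0.025 to 0.073. The most similar pair by genes was knockdown replicate 2 and control replicate 3, which shared 943 genes, 56.5% of the first list's and 55.7% of the second's. Every pair with control replicate 1 or 2, the lists with the fewest genes, had a gene index of 0.225 to 0.275. All pairs among the other lists had 0.301 to 0.390, so the index cannot separate group from list length.

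Among genes with a peak in every list, the 8 whose lowest rank was highest were EIF2AK2, PHLDA1, ARCN1, MDM2, ZNF148, PLEKHA8, PTP4A1 and ABHD2. EIF2AK2, a kinase activated by double-stranded RNA that phosphorylates the initiation factor eIF2, had best log2 enrichments of 5.27, 3.93 and 4.11 with knockdown and 3.10, 4.90 and 4.71 in control. In 5 lists its best peak lay within 325 bases of sequence (chr2:37333803-37334127, minus strand, hg19), the width of the peak in control replicate 3. In control replicate 1 it lay elsewhere (chr2:37328678-37328702). The values of the groups overlapped.

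MDM2, the ubiquitin ligase that targets p53, had best values of 3.53, 4.67 and 3.59 with knockdown and 2.17, 4.93 and 3.12 in control. Its strongest position moved between lists, from chr12:69234861-69234885 in knockdown replicate 1 to chr12:69237686-69237735 in control replicate 1. ZNF148, a zinc finger transcription factor, had 4.33, 4.05 and 5.29 with knockdown and 4.09, 3.24 and 3.76 in control, at a different best position in each list. ABHD2, a lipid hydrolase, had 4.74, 4.11 and 2.78 with knockdown and 2.49, 3.68 and 4.00 in control. In none of these genes were the groups apart.

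The joined positions found in all lists give the most repeatable sites. The highest-ranked lay in PHLDA1, which encodes a pleckstrin homology-like protein (chr12:76421177-76421551, minus strand, hg19), with log2 enrichments of 5.39, 4.38 and 3.45 with knockdown and 3.79, 3.69 and 4.30 in control. Next came a position in ARCN1, the delta subunit of the COPI vesicle coat (chr11:118471797-118472096, plus strand), with 4.86, 3.44 and 3.43 against 3.80, 4.89 and 4.16. At this position, as at those in NFIX and LRRFIP1, the peaks of the lists were chained by overlap and no single base was in all of them.

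CRTAP, a component of the complex that hydroxylates collagen proline, had 3.04, 2.63 and 2.67 with knockdown and 2.64, 3.16 and 2.89 in control (chr3:33183971-33184595, plus strand). MTSS1L had 2.63, 2.57 and 3.10 against 2.73, 3.30 and 3.20. AXL, a receptor tyrosine kinase, had 3.09, 2.36 and 2.15 against 2.10, 2.96 and 2.56. The other positions were in PACS1, AGRN, LRRFIP1, SEPT9, IGFBP5, ITGA5 and EEF1A1. At EEF1A1, the translation elongation factor, values were the lowest, 0.57 to 1.17, and reads may be shared with its near-identical copies.

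Genes seen more often in 1 group were counted against the same count over all genes with a peak of any region. A gene was called recurrent in a group when it was represented in that group by at least 2 lists more than in the other. With knockdown 447 genes were recurrent, 14.2% of 3139, against 20.1% of all 10226 genes with a peak. In control there were 138, 4.40%, against 1.76% of all genes. For genes with a short-transcript 3′ UTR peak the shares were 7.72% and 5.82%.

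These counts depended on single lists and on list length. The knockdown count of 447 was 124, 111 and 164 without knockdown replicates 1, 2 and 3 and 846 without control replicate 3. The control count of 138 was 227, 253 and 231 without knockdown replicates 1, 2 and 3 and 58, 34 and 18 without control replicates 1, 2 and 3. With lists of equal length the counts were 290 and 219. By joined position 342 (3.00%) were recurrent with knockdown and 201 (1.77%) in control, against 5.46% and 1.02% of joined positions of all peaks.

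A stricter pattern, all 3 lists of a group and none of the other, held for 46 genes with knockdown and 10 in control. These are 1.47% and 0.319% of the genes with such a peak, against 2.9% and 0.0391% of all genes with a peak. Of the 46 genes, 6 had a joined position shared by the 3 knockdown lists, and 16 had a peak of some other kind in a control list. Of the 10 genes, 2 had a shared joined position, and 10 had a peak of some other kind in a knockdown list. In those 16 and 10 genes the RNA was thus present in the group without the 3′ UTR peak.

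The 6 leading genes on the knockdown side were GCNT1, ALKBH8, CPEB4, SNTB2, MYSM1 and DNAJB14. CPEB4, which binds cytoplasmic polyadenylation elements in 3′ UTRs, had best log2 enrichments of 5.63, 3.96 and 3.87 in knockdown replicates 1 to 3. MYSM1, a histone H2A deubiquitinase, had 4.21, 3.86 and 5.31, and SNTB2, a syntrophin adaptor of the membrane skeleton, had 3.60, 3.93 and 4.45. DNAJB14, a chaperone cofactor of the endoplasmic reticulum, had 2, 5 and 4 peaks with best values of 3.89, 3.84 and 3.75. None of the 6 leading genes had a peak of any region in a control list, so none is among the 16 whose RNA could be seen there.

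GCNT1, a glycosyltransferase of O-glycans, and ALKBH8, a tRNA-modifying relative of ALKBH3, recurred at different positions. The best GCNT1 peak of knockdown replicate 1 (chr9:79121681-79121780) and that of knockdown replicate 3 (chr9:79122156-79122230) did not overlap. Neither did those of ALKBH8 (chr11:107374427-107374501 and chr11:107373602-107373776).

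On the control side the leading genes included CKAP5, SIRT1, PGK1, DTL and TNFRSF10B. CKAP5, a microtubule polymerase of the spindle, had the same best peak of 25 nt in all 3 control lists (chr11:46765098-46765122, minus strand), with log2 enrichments of 3.65, 3.36 and 3.14. SIRT1, an NAD-dependent deacetylase, had 3.96, 3.24 and 4.68. PGK1, a glycolytic enzyme, had 1.99, 4.28 and 5.60, and TNFRSF10B, a death receptor for TRAIL, had 1.77, 4.28 and 4.99. DTL, a substrate receptor of a cullin ubiquitin ligase, had 2.10, 3.02 and 2.69. Control replicate 1 had the lowest value in PGK1, DTL and TNFRSF10B but the highest in CKAP5.

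**Figure D5:**
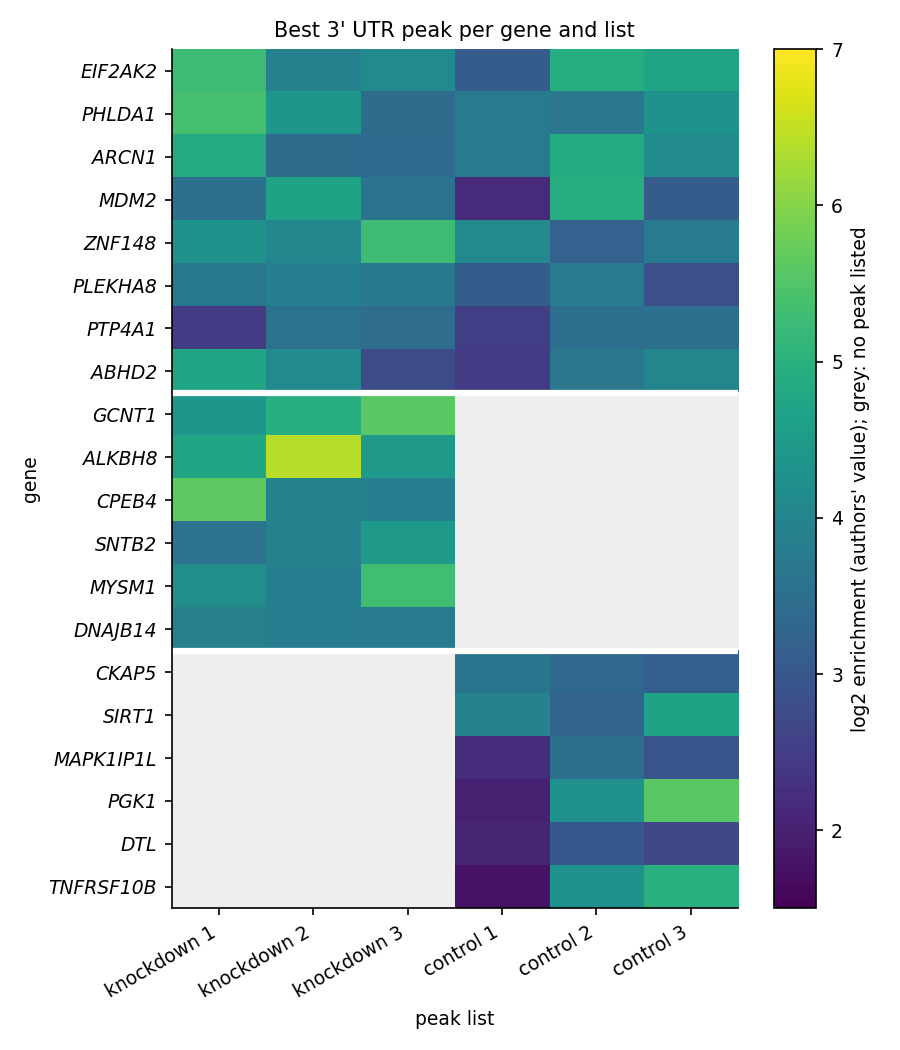
Best log2 enrichment, the authors' value, of a long-transcript 3′ UTR peak for each gene (rows) in each list (columns). The upper 8 genes have a peak in all 6 lists, the next 6 in the 3 knockdown lists and no control list and the last 6 in the 3 control lists and no knockdown list, and grey marks a list with no such peak.

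At the level of positions, 21 joined positions held a peak in the 3 knockdown lists and no control list and 14 the reverse. These are 0.184% and 0.123% of the joined positions, against 0.414% and 0.0756% of joined positions of all peaks. The strongest with knockdown lay in NCEH1, a cholesterol ester hydrolase (chr3:172348614-172348788, minus strand), at 4.11, 6.70 and 4.07, and in DDHD1, a phospholipase (chr14:53513036-53513310, minus strand), at 3.65, 4.50 and 3.81. The next in rank were weaker, at 3.00, 3.18 and 2.40 in UBXN7 and 2.73, 3.53 and 2.39 in CHML. After CKAP5, the strongest on the control side were in NCKAP1, an actin regulator, at 2.85, 2.83 and 3.14, and in ATP2A2, a calcium pump, at 2.40, 2.74 and 2.34.

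Gene groups were described by how many of their genes with any peak had a long-transcript 3′ UTR peak, beside 3139 of 10226 (30.7%) over all genes, and by recurrence, beside 447 and 138 genes over all. These lists were not tested, and long genes fill some of them. Regulators of microRNA silencing and deadenylation had such a peak in 12 of 18 genes, with 3 recurrent with knockdown and 2 in control. AGO3, an Argonaute protein, had 3.06, 5.47 and 5.34 with knockdown and 5.47 in control replicate 3 only. DICER1, which cuts microRNA precursors, had 3.93, 4.41 and 2.91 with knockdown and 3.70 in control replicate 3. AGO1 had 2.54, 4.16 and 2.90 with knockdown and no such peak in control. CNOT1, the scaffold of the deadenylase complex, went the other way, with 1.62 in knockdown replicate 2 and 2.55, 3.49 and 3.01 in control.

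Proteins that bind 3′ UTRs had such a peak in 14 of 22 genes, with 3 recurrent with knockdown and 1 in control. FMR1 and CELF1 were in all 6 lists: FMR1, a translational regulator, had 2.90, 2.72 and 1.96 with knockdown and 3.01, 2.83 and 2.51 in control. CELF1, which binds GU-rich elements, had 2.12, 1.82 and 1.48 against 1.88, 3.02 and 2.09. PUM2, a Pumilio repressor, had 3.08, 2.94 and 2.52 with knockdown and 2.66 in control replicate 3. ELAVL1, which stabilises AU-rich mRNAs, was listed in control replicates 1 and 2, at 1.73 and 4.25, and in no knockdown list. Of 17 cleavage and polyadenylation genes 6 had a peak of this kind and none was recurrent in a group. NUDT21, a subunit of cleavage factor I that sets poly(A) site choice, had 2.33 and 1.90 in knockdown replicates 1 and 3 and 2.15, 2.31 and 2.89 in control.

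Ubiquitin ligases had such a peak in 20 of 25 genes, with 5 recurrent with knockdown (XIAP, NEDD4, WWP1, UBR3, BIRC6) and 1 in control (ITCH). NEDD4, the founding member of its ligase family, had 3.33, 3.56 and 3.54 with knockdown and 2.41 in control replicate 2. ITCH, of the same family, had 2.91 in knockdown replicate 2 and 2.07, 2.21 and 4.27 in control. Chromatin regulators had such a peak in 19 of 22 genes, with 5 recurrent with knockdown (KMT2A, ARID1B, CHD2, NSD1, TET2) and 1 in control (SMARCC1). KMT2A, a histone H3 methyltransferase, had 2.43, 2.53 and 3.06 with knockdown and 3.52 in control replicate 3.

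Receptor kinases and RAS signalling genes had such a peak in 18 of 21, with ERBB2 and RICTOR recurrent with knockdown. NRAS, a small GTPase, had 3.85 and 3.88 in knockdown replicates 1 and 2 and 1.75, 4.07 and 1.98 in control. EGFR had 1.71, 2.82 and 2.43 with knockdown and 1.47 and 1.65 in control replicates 1 and 3. Of 16 TGF-beta and BMP genes 14 had a peak of this kind, with BMPR2, a BMP receptor, recurrent with knockdown at 4.33, 3.88 and 3.98 and listed at 3.90 in control replicate 3. SMAD5, a BMP signal transducer, had 3.46, 3.95 and 3.34 with knockdown and 3.89 and 3.58 in control replicates 2 and 3.

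In p53 and apoptosis genes 9 of 18 had such a peak, with none recurrent with knockdown and CYCS and TNFRSF10B in control. CYCS, cytochrome c, had 0.74, 1.21 and 1.32 in the control lists. Of 17 autophagy and lysosome genes 11 had one, with ATG12, a conjugation factor of autophagosome formation, recurrent in control at 1.59, 2.62 and 4.01. Of 21 genes of the m1A and m6A machinery 11 had one. ALKBH8 and ZC3H13, a subunit of the m6A writer complex, were recurrent with knockdown, and YTHDF3, an m6A reader, and RBM15B in control. YTHDF3 had 2.96 in knockdown replicate 2 and 2.25, 3.07 and 3.20 in control. ALKBH3 itself had no such peak.

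Ferroptosis and glutathione genes had such a peak in 7 of 29, the smallest share of the 11 groups. SLC7A11, the cystine transporter subunit blocked by erastin, was listed with 2, 5, 4 and 2 peaks in knockdown replicates 1 and 2 and control replicates 1 and 3. Its best log2 enrichment was 6.93 in knockdown replicate 1 and 2.62, 2.40 and 2.31 in the other lists that held it, so 1 list alone was high, and the best positions differed. GCLM, a subunit of the first enzyme of glutathione synthesis, had 3.85 and 3.06 in knockdown replicates 1 and 2 and 3.41 and 2.72 in control replicates 1 and 3. TFRC, the transferrin receptor, had low values throughout, 1.34, 1.66 and 1.13 with knockdown and 1.29 and 1.97 in control replicates 1 and 2. IREB2, which binds iron-responsive elements, had 2.41 and 2.94 in knockdown replicates 2 and 3 and 3.16 and 3.71 in control replicates 1 and 3. MBOAT2 was the 1 gene recurrent with knockdown and ACSL4 the 1 gene recurrent in control, while GPX4 and NFE2L2 had no peak of this kind.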

How the data were processed

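m1A-enriched and input mRNA of 12 samples was sequenced, and 1 peak list per IP sample (6 lists) was used. The submitters' processing notes name HISAT2 2.1.0, Trimmomatic 0.32 and FastQC 0.11.7 without their roles, and the build hg19. The name of the peak caller is not given in the sources used here. Enrichment values are, per the file headers, log2 fold changes whose sides are not named, and these deposited values were read as IP over input. Deposited p-values, all below 1e-10, and false discovery rates are the authors' own. Transcript lengths and regions are the authors' annotation. Depth is unknown.

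Entries were collapsed to distinct peaks, and positions are counted from 1. Each list gave 1 value per measure. Groups were compared by two-sided exact permutation tests of the difference in means, and kinds of peak within lists by exact sign-change permutation tests, with Benjamini-Hochberg adjustment over 8 tests. Shares have Wilson 95% intervals. The code was tested on simulated data. Alternatives were other length limits, another length per peak, mixed regions, a log2 minimum of 2, equal list length, merged peaks and left-out lists. No sequence was read, as no genome of the build was used here.

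The kind of peak, the gene lists and the tests were chosen with earlier results of these data known. Genes were named by rank rules: the lowest within-list percentile of the best peak for genes in all 6 lists (8 genes) or in 1 group only (6 each), the mean share of peaks (5 genes), the 6 top joined positions, and up to 3 genes per gene list by the number of lists, with others given for a call or count. Not every gene these rules name is reported here.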

Additional observations from a re-analysis of the deposited data

How the results depend on the processing

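With 3 lists per group the exact test cannot fall below p = 0.1, however large a difference is. List lengths also differ several-fold and depth is unknown. The group comparisons therefore give sizes and spreads and cannot establish a difference. The higher enrichment of long-transcript over short-transcript 3′ UTR peaks kept its direction under every alternative run, from 0.18 with a log2 enrichment of at least 2 to 0.51 with peaks that also name another region, and was 0.41 to 0.47 with a list left out. Against long-transcript coding peaks the unadjusted exact p fell to 0.03125 at transcripts of at least 5000 nt (0.52), by the smallest transcript length of a peak (0.50), at a log2 enrichment of at least 2 (0.34) and within genes (0.39, chosen after seeing the data). With a list left out it was 0.41 to 0.54.

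The difference of that first gap between groups changed sign at 5000 nt (-0.029), with peaks that also name another region (-0.021), with equal list length (-0.18) and with a list left out (-0.074 to 0.084). The width difference was -20.8 nt with peaks that also name another region. With equal list length the group difference was -0.024 in log2 number, -0.34 and 12.7 points in the shares of all and of 3′ UTR peaks, and -0.18 in peaks per gene (exact permutation p = 0.1). Peaks per gene differed by -0.10 to 0.20 and the log2 number by 0.31 to 1.11 with a list left out. The cause was not tested.

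Genes recurrent with knockdown numbered 290 with equal list length and 111 to 846 with a list left out, where 1 list fewer in a group makes the criterion stricter or laxer. Genes recurrent in control numbered 219 with equal list length, 87 at 5000 nt and 18 to 253 with a list left out. Joined positions in all lists numbered 20 at 3000 nt, 5 at 5000 nt, 30 with mixed regions, 6 at a log2 enrichment of at least 2, 3 with equal list length, 3 by a reciprocal overlap of at least 50%, 27 with neighbours within 300 bases merged (chosen after seeing the data) and 13 to 25 with a list left out.

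The labels give both groups the same replicate numbers. The correlation of same-numbered lists' deviations in gene presence from their group means was 0.029, -0.003 and -0.012. For differently numbered lists it was -0.035 to 0.039. Presence of a gene depends on list length, so these values cannot settle whether the lists were paired. A replicate block leaves differences in means unchanged by construction. They were 0.62 in log2 number, -5.99 and 7.26 points in the shares, 0.06 in peaks per gene and 0.0033 in the gap. With 3 pairs the exact sign-change test cannot fall below p = 0.25, so the block could not have made any of these pass. The search for sequence features was not run.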
